A study of Caenorhabditis elegans with 2 samples.

Results

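The distal intergenic regions described here come from late embryos of Caenorhabditis elegans with PQM-1 fused to GFP. They are 2000 regions, outside protein-coding genes and promoters, of the authors' pooled list of peaks and background. Most of them, 1578, had a q-value over 0.05 as the authors gave it, so they may include background. Of the 2000, 747 (37.35%) lay under 2 kb from a protein-coding transcript start, and 1751 lay outside annotated genes of every kind. The 2000 regions are the strongest, by the authors' pooled signal value, of 5522 regions whose summit lay in no protein-coding gene body, outside the stretch from 1000 bp upstream to 200 bp downstream of every protein-coding transcript start, and over 200 bp from any tRNA, snoRNA, snRNA or rRNA gene. They make up 36.22% of those 5522 and 7.222% of the 27694 regions in the pooled list, which also held 9348 at promoters, 12222 in gene bodies outside promoters and 602 beside small RNA genes. Sequence that meets the same conditions, called eligible here, covers 24956114 bp or 24.89% of the 6 nuclear chromosomes. All animals were hermaphrodites of strain OP201, genotype unc-119(tm4063) III; wgIs201, whose integrated transgene makes PQM-1 tagged at its C terminus with GFP and FLAG; they were collected 2 h after synchronization by egg bleaching, with their age given as unknown. The study consists of 1 group with 2 biological replicates, and chromatin from whole embryos was sonicated and precipitated with an anti-GFP antibody. Signal at a region therefore mixes all embryonic cell types, and the tagged transgene is expressed beside whatever endogenous PQM-1 the strain makes. No precipitation from untagged animals was analysed here, and the depth of the libraries is unknown because the lists give no read counts.

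PQM-1 is a zinc finger transcription factor known in adult worms for acting opposite to the FOXO factor DAF-16 under insulin signalling, and for its tie to the DAF-16 associated element, which contains a GATA core. GATA factors such as ELT-2 direct intestinal genes in this animal and read closely related letters, while the E-box is bound by basic helix-loop-helix factors. In the compact worm genome most regulatory sequence lies close to gene starts, so regions far from starts are the smaller and less described share of a factor's sites.

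The 3 sequence elements that recur at these summits are shown first, each at the 4 strongest regions that hold it, because the comparisons turn on them. Sites are named by the nearest protein-coding gene start, come from the RefSeq genome of WBcel235 (the same sequence as ce11), are written 5′ to 3′ with 15 bases on each side, and have the element in capitals. The DAF-16 associated element TGATAAG was present near Y37A1A.2 (chrIV:13919365-13919401, minus strand), ZK899.6 (chrX:9465767-9465803, minus strand), zig-13 (chrIII:154303-154339, plus strand) and the transthyretin-like gene ttr-1 (chrIII:9930442-9930478, plus strand).
Y37A1A.2: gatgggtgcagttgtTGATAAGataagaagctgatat
ZK899.6: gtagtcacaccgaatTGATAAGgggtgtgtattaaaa
zig-13: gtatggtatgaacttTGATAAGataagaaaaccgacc
ttr-1: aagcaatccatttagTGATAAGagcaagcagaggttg

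The palindromic E-box CACGTG was present near bcat-1, a branched-chain amino acid aminotransferase gene (chrX:12872506-12872541), penr-1 (chrV:5271638-5271673), the glutamate dehydrogenase gene gdh-1 (chrIV:11956480-11956515) and R03E9.2 (chrX:6737732-6737767), all written on the plus strand.
bcat-1: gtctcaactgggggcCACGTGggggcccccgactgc
penr-1: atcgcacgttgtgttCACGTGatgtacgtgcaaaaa
gdh-1: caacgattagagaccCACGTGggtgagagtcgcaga
R03E9.2: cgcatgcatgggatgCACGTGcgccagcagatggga

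The GA repeat GAGAGAGA was present at the same bcat-1 region (chrX:12872436-12872473, minus strand), and near the protein phosphatase regulatory subunit gene pptr-1 (chrV:16355995-16356032, minus strand), the AMP deaminase gene ampd-1 (chrII:5202215-5202252, plus strand) and Y17D7C.2 (chrV:18723829-18723866, plus strand). In these repeats the capitals mark 1 match of several that can overlap.
bcat-1: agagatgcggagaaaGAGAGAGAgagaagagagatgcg
pptr-1: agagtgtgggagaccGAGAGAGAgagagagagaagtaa
ampd-1: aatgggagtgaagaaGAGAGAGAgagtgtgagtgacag
Y17D7C.2: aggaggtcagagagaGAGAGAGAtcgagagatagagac

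The windows of 201 bp around 3 of the strongest summits show how different these regions are from each other. The Y37A1A.2 window (chrIV:13919269-13919469, plus strand, 37.31% G or C) holds 3 copies of TGATAAG, read here on the other strand as CTTATCA in capitals. The W02H3.3 window (chrX:11094123-11094323, plus strand, 41.29% G or C) holds none of the 3 elements. The fbxa-55 window (chrIII:931506-931706, plus strand, 39.3% G or C) is a tandem repeat, and 72.14% of its 36-letter words were unique in the genome.
Y37A1A.2: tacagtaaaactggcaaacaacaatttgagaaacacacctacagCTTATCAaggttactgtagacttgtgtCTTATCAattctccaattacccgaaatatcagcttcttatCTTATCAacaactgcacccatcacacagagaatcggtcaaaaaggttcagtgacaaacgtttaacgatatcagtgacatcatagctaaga
W02H3.3: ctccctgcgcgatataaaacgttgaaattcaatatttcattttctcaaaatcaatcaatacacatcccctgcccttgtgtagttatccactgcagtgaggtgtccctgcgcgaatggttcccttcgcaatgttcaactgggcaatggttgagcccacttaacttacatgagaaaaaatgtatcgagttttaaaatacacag
fbxa-55: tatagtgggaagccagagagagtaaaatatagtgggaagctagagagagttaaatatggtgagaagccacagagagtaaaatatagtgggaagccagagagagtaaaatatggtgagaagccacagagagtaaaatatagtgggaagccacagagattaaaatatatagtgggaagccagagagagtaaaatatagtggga

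The signal that chose the regions ran from 356.2 down to 30.57, with a median of 39.69, and their places in the whole pooled list ran from 4 to 10534. These values are the authors' own, set the membership and are given only as a description. The limit fell in a dense part of the list. The last region inside lay near the MAP kinase kinase gene mkk-4 and the one before it near let-413, at 30.57 and 30.58, and the next outside lay near ZK792.12 at 30.57. Of the 2000 regions, 422 (21.1%) passed a q-value of 0.05 and 204 passed 0.01 as the authors gave it, so most are relaxed calls. The authors' reproducible list of 669 regions held 90 of them.

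The strongest 12 regions all belonged to the reproducible list, 6 of them lay on X, and 2 held any of the 3 elements. Signals in the replicates come from lists that are not scaled to each other and share reads with the pooled list. The strongest region lay 4965 bp upstream of nas-30, an astacin metalloprotease gene on chromosome I, with a pooled signal of 356.2, 195.8 in replicate 1 and 188 in replicate 2. In its window only 36.82% of 36-letter words were unique in the genome and 71.14% of bases were marked as repeats. The next lay on X 3963 bp from W02H3.3, between the 3′ ends of both flanking genes, with 223.2 pooled, 98.45 in replicate 1 and 121.5 in replicate 2.

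The regions near fbxa-55 (an F-box gene), Y37A1A.2 and irld-18 followed with pooled signals of 213.5, 196.9 and 194.1. The irld-18 region lay 13440 bp from that gene's start in a gap of 35563 bp between protein-coding genes, with 84.78 in replicate 1 and 111 in replicate 2. Those near C30E1.4, K02D3.1, bcat-1 and F22H10.2 lay on X with pooled signals of 184.1, 174.5, 169.7 and 166.6. The region near dhs-8, a short-chain dehydrogenase gene, had 175.1 and lay between dhs-8 and cysl-2, inside an annotated ncRNA gene. The last 2 of the 12, near C24H10.4 (X, 165) and T28H10.2 (V, 160.5), had 20.4% and 38.31% unique 36-letter words and were almost wholly marked as repeats. In all, 3 of the 12 strongest had fewer than 50% unique words, against 33 of the 2000 (1.65%); the part of repeats in the signal was not tested.

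Chromosome X held 413 of the 2000 regions, 20.65% with an exact 95% binomial interval of 18.89 to 22.49%, against 22.65% of the eligible sequence. The share was below that of the sequence by a two-sided exact binomial test (p = 0.03259). X was not the chromosome with the lowest ratio to its sequence: the share of regions divided by the share of sequence was 0.9117 on X, 0.831 on IV and 0.8355 on V, against 1.321 on I, 1.281 on III and 1.143 on II. Per megabase of eligible sequence that is 73.06 regions on X, 66.6 on IV, 66.96 on V, 91.61 on II, 102.7 on III and 105.9 on I. Measured against bases that begin a 36-letter word unique in the genome, the sequence share of X was 23.65% and the exact test gave p = 0.001449.

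The difference on X depended on how many regions were taken, and among the strongest the share on X was above that of the sequence without passing the test. X held 30 of the strongest 100 regions (30%, interval 21.24 to 39.98), 23.67% of those placed 101 to 400, 22% of 401 to 800, 20.75% of 801 to 1200, 16.75% of 1201 to 1600 and 18.5% of 1601 to 2000. In the strongest 1000 the share was 22.7% (exact p = 0.9699), in the strongest 500 it was 24.8% (p = 0.2618), and in the 100 strongest, a cut chosen after seeing the data, p was 0.09342. Taking the 2000 strongest from replicate 2 alone gave 21.65% (exact p = 0.2975), and a promoter reaching from 2000 bp upstream to 500 bp downstream gave 21.75% against 23.03% of the sequence (p = 0.1842). The share stayed below that of the sequence in replicate 1 alone (20.5%, exact p = 0.02159). Outside every annotated gene it was 20.4% against 23.85% of the sequence (exact p = 0.0002631). In the middle part of each chromosome, a setting added after seeing the data, it was 18.58% against 21.76% (exact p = 0.01905). The change of the share with rank was not tested. Neighbouring regions are not independent, since 725 (36.25%) lay within 2000 bp of another, whereas the binomial test treats them as independent. Keeping only regions over 2000 bp from a stronger one left 328 of 1601 on X, or 20.49% (exact p = 0.03936).

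**Figure D1:**
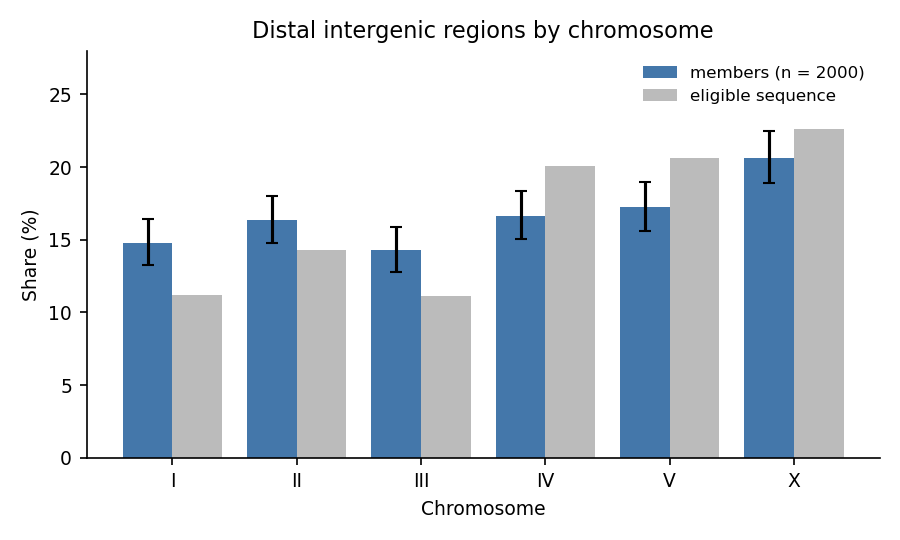
Share of the 2000 regions and of the eligible sequence on each chromosome, in percent; bars on the regions are exact 95% binomial intervals. X, IV and V hold less than their share of the sequence, 20.65% against 22.65% on X, and I, II and III hold more.

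Of 10 patterns 8, or 80%, differed between the 201-bp window at the summit and a window of the same length centred 500 bp to a randomly drawn side (exact McNemar test, two-sided, Benjamini-Hochberg over 10 patterns, threshold 0.05). There were 5 more common at the summit and 3 less common. TGATAAG and the general GATA site outside it are both parts of the general GATA site. The 10 are therefore not all separate patterns. TGATAAG was in 211 summit windows (10.55%, interval 9.237 to 11.98) and in 2.9% of flank windows (adjusted exact p = 3.86e-22). GAGAGAGA was in 10.55% against 1.75% (adjusted exact p = 1.98e-32), which was the largest ratio of the 10, 6.029. CACGTG was in 5.55% against 3.15% (adjusted exact p = 0.0004104). The general GATA site, an A or T before GATA and an A or G after it, was in 42.35% against 35.65% (adjusted exact p = 3.10e-05), and in 38.3% against 34.05% once copies within TGATAAG were set aside (adjusted exact p = 0.007412). That last difference did not pass in regions chosen from replicate 2 alone (37.6% against 36.05%, adjusted exact p = 0.3582) with the wider promoter (adjusted exact p = 0.1018) or with windows of 200 bp to each side (adjusted exact p = 0.07071).

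The heat shock element half-site pair TTCNNGAA was less common at summits (8% against 12.5%, adjusted exact p = 1.20e-05), as were the SKN-1 site WWTRTCAT, with W for A or T and R for A or G (6.95% against 10.3%, adjusted exact p = 0.0004104), and the run TTTTTTT (25.2% against 44.55%, adjusted exact p = 4.93e-38). The SKN-1 site did not pass in the strongest 500 (adjusted exact p = 0.1252), with windows of 50 bp to each side (3.7% against 4.4%, adjusted exact p = 0.3724) or at a q-value of at most 0.05 (adjusted exact p = 0.2659). The FOXO site GTAAACA, which DAF-16 can bind, was in 3.65% against 2.8% (adjusted exact p = 0.1617), and in 2.4% of flanks 1000 bp away (adjusted exact p = 0.03042). The AP-1 site TGACTCA was in 1.9% against 1.95% (adjusted exact p = 1). Base composition moved with these results: summit windows held 42.73% ± 7.956 G or C (SD, n = 2000 windows), flanks 34.34% ± 7.008, and the eligible sequence 34.24%. Bases marked as repeats made up 25% of summit windows, 39.75% of flanks and 40.37% of eligible sequence. The part of composition in the pattern differences was not tested; TGATAAG itself has 2 G or C letters of its 7.

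The 3 elements seldom shared a window. Any of them was in 489 regions (24.45%) and in 154 flanks (7.7%), and 1511 regions (75.55%) held none. TGATAAG and CACGTG occurred together in 20, TGATAAG and GAGAGAGA in 13, and CACGTG and GAGAGAGA in 11. The TGATAAG copy nearest the summit lay at a median of 41 bp from it, with 123 of 211 within 50 bp, and 31 windows held several copies, at most 3. For CACGTG the median was 41.5 bp and for GAGAGAGA 42.5 bp.

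**Figure D2:**
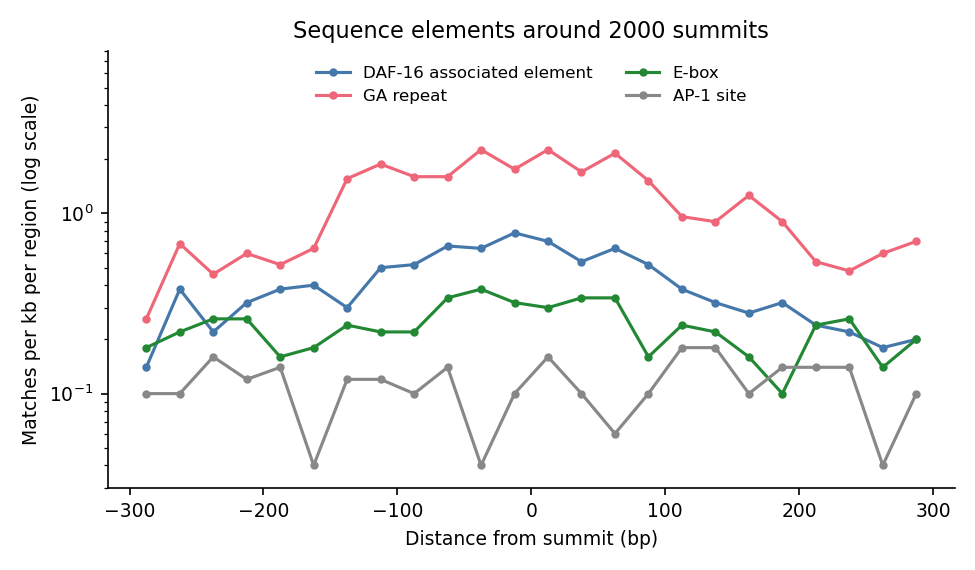
Matches per kb per region (log scale) in 25-bp bins by distance from the summit in bp, for the DAF-16 associated element, the GA repeat, the E-box and the AP-1 site over the 2000 regions. The first 2 are densest within about 100 bp of the summit, and the AP-1 site shows no such rise. Overlapping matches of the GA repeat are counted separately.

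Most TGATAAG copies in distal sequence lay outside these regions. Eligible sequence held 4330 copies, and 239 of them (5.52%) fell in the summit windows, which cover 1.577% of its bases. The same share was 12.56% for GAGAGAGA, 3.131% for CACGTG and 1.503% for TGACTCA. The bases beside the element differed between the 239 copies and the 4091 others. An A followed TGATAAG at 59.41% of copies in the windows (interval 52.89 to 65.7) and 41.26% elsewhere, whereas a T followed at 8.368% and 25.54%. At the second base after the element G was at 30.54% against 17.67%, and T at 14.23% against 31.19%. Summit windows held more G or C than the eligible sequence, 42.73% against 34.24%. The part of composition in these differences was not tested. The sites near Y37A1A.2, zig-13 and ttr-1 printed above have the A, and that near ZK899.6 has a G.

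The share of regions with each element was lower in the last 400 regions than in the strongest 100. TGATAAG was in 14% of the strongest 100, 16.67% of those placed 101 to 400, 13% of 401 to 800, 9.25% of 801 to 1200, 7.5% of 1201 to 1600 and 7% of 1601 to 2000. GAGAGAGA was in 20% of the strongest 100 and 6.75% of the last 400. CACGTG was in 8% of the strongest 100, 9.5% of those placed 401 to 800 and 2.5% of the last 400, where 2.5% of flanks held it as well. These shares are descriptions over places that the signal itself set, and no trend test was run.

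**Figure D3:**
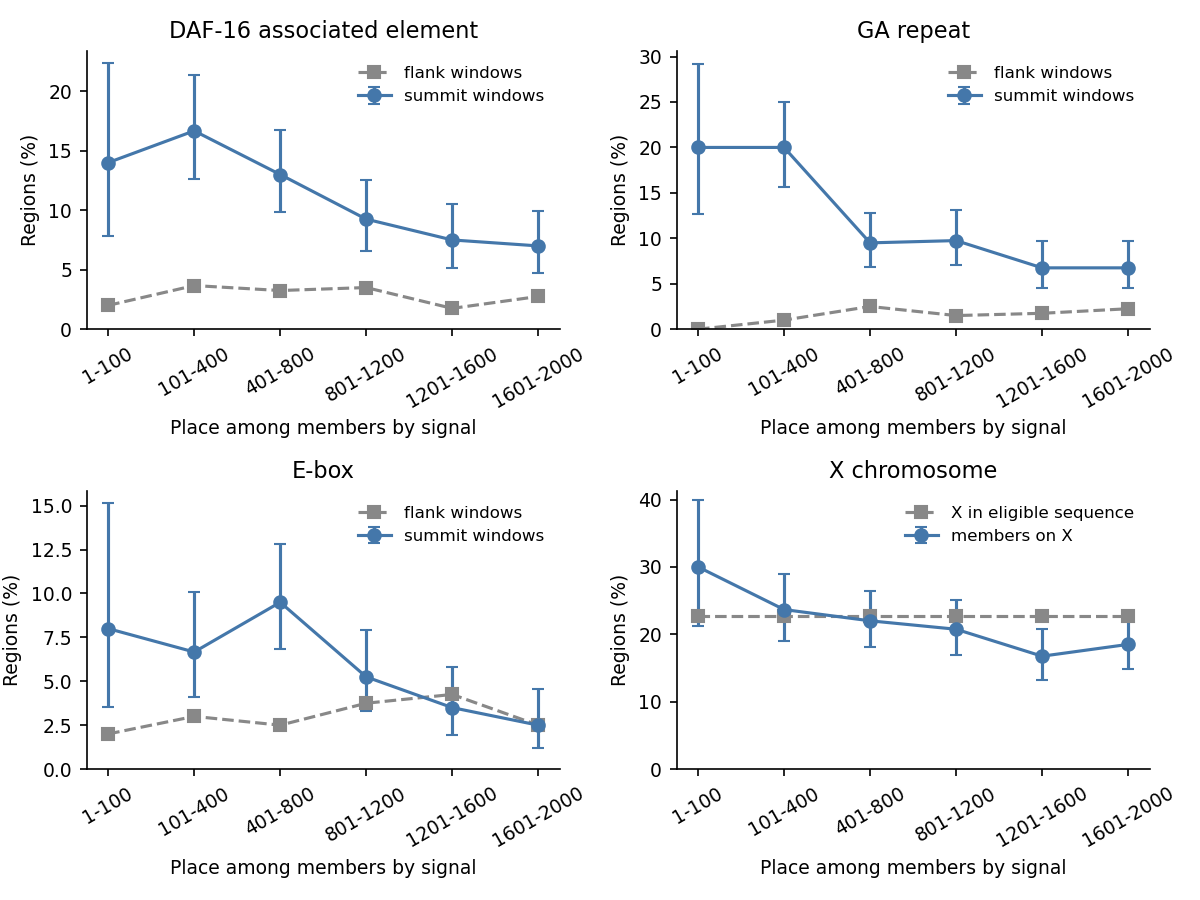
Percent of regions with the DAF-16 associated element, the GA repeat or the E-box in the summit and flank windows, and percent of regions on X, by place among the 2000; bars are exact 95% binomial intervals. TGATAAG goes from 14% in the strongest 100 to 7% in the last 400, and the X share from 30% to 18.5%, across its share of the eligible sequence.

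A count of all 8192 words of 7 letters, each taken with its reverse complement, found 1247 more common at summits (15.2%) and 728 less common (8.89%) by the same test adjusted over all words. Calls went with the number of G or C letters in a word. None of the 64 words with no G or C was higher and 54 were lower, while 56 of the 64 made only of G and C were higher. Of the 12 most significant words, 10 were lower and made mainly of A and T, led by AAAAATT (20.65% against 44.85%, adjusted exact p = 6.77e-56). The 2 that were higher were CTCTCTC (16.3% against 3.45%, adjusted exact p = 7.80e-41) and AGAGAGA (17.35% against 4.15%, adjusted exact p = 3.39e-39), both within the GA repeat.

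TGATAAG took place 12 of the 1247 higher words, and the first place of the 34 higher ones among 1344 with 2 G or C letters. Of 252 words that contain GATA, 31 or 12.3% were higher, against 15.2% of all words. Words with GATA have 1 to 4 G or C letters. Of all words with 1, 2, 3 and 4 such letters, 0%, 2.53%, 7.187% and 14.24% were higher. No test at like composition was run. The higher words with GATA included GATAAGA (8.6% against 3.55%) and CTGATAA (8.1% against 3.65%), which overlap TGATAAG, and TGATAAC (6.95% against 2.75%). Further words were chosen after their values were seen. CTGCGTC was in 8.9% against 1.7%, and the longer GAGACGCAG, which holds it on the other strand, in 133 summit windows (6.65%) and 23 flanks (1.15%). Of those 133 windows, 52 also held GAGAGAGA and 12 TGATAAG. CACACACA was in 7.1% against 1.45%. The 2000 strongest promoter regions shared 680 of the 1247 higher words, out of 1152 of their own, which is 54.53% and 59.03% of the lists.

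Compared with the 2000 strongest promoter regions, the distal regions differed in 1 of 10 patterns. GAGAGAGA was in 10.55% of distal and 7.85% of promoter windows (Fisher's exact test, adjusted over 20 comparisons, p = 0.0123), and the direction turned with the wider promoter, 7.7% against 10.75% (adjusted exact p = 0.00292). Chosen from a replicate alone, the adjusted exact p was 0.1873 (replicate 2) and 0.1894 (replicate 1), and outside every annotated gene it was 0.05786. With windows of 50 bp to each side the shares were 6.1% and 4.35% (adjusted exact p = 0.04434). The GAGAGAGA difference was larger in the strongest 1000 (14.1% against 9.1%, adjusted exact p = 0.003966) and 500 (17.6% against 8.6%, adjusted exact p = 0.0004222). In regions of a like range of signal it was 10.55% against 6.639% (adjusted exact p = 7.44e-07). TGATAAG was in 10.55% and 11.9% (adjusted exact p = 0.2697), and with the wider promoter in 8.3% and 12.7% (adjusted exact p = 3.38e-05). The general GATA site was in 42.35% and 40.05% (adjusted exact p = 0.266), and in 49.4% and 36.4% of the strongest 500 of each (adjusted exact p = 0.0004222). G or C content was close, 42.73% and 42.69%. The promoter regions were stronger, with signals from 756 to 42.14.

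Against the 2000 strongest regions in gene bodies outside promoters, 7 of 10 patterns differed. TGATAAG was in 10.55% of distal and 7.1% of gene-body windows (adjusted exact p = 0.0005777), the general GATA site in 42.35% and 31.1% (adjusted exact p = 3.74e-12), GAGAGAGA in 10.55% and 6.25% (adjusted exact p = 5.63e-06) and GTAAACA in 3.65% and 2.1% (adjusted exact p = 0.01239). CACGTG was lower in distal windows, 5.55% against 7.45% (adjusted exact p = 0.04373), which did not pass in the strongest 1000 or 500, in replicate 1 alone, with windows of 50 bp to each side or in regions of a like range of signal (adjusted exact p from 0.09637 to 0.4812). In the strongest 500 of each class the TGATAAG shares were 16% and 13% (adjusted exact p = 0.3208) and those of GAGAGAGA 17.6% and 13% (adjusted exact p = 0.1326). Gene-body windows held more G or C, 46.6% ± 8.426 (SD, n = 2000), and the part of that in these differences was not tested.

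Within the distal regions, 0 of 10 patterns differed between X and the autosomes by Fisher's exact test adjusted over 10, and 0 had an unadjusted p under 0.05. TGATAAG was in 40 of 413 regions on X (9.685%) and 171 of 1587 on autosomes (10.78%), over flanks of 3.39% and 2.773%. GAGAGAGA had the smallest unadjusted p, 0.08804, with 8.232% and 11.15%. Among regions chosen from replicate 2 alone that element differed, 5.312% against 9.892% (adjusted exact p = 0.02243).

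Each replicate was used to check the other. Of the 2000 strongest distal regions chosen in replicate 1, 1110 (55.5%, interval 53.29 to 57.69) had their summit inside a region of replicate 2, against 1513 (75.65%) of 2000 promoter regions chosen in the same way (Fisher's exact test, adjusted over 2 comparisons, p = 6.08e-41). Chosen in replicate 2 and sought in replicate 1, the shares were 60.5% and 79.65% (adjusted exact p = 3.15e-40). The finding rate was high for the strongest: 96 and 97 of the first 100 distal regions, 83.33% and 87.67% of those placed 101 to 400, and 40.5% and 46.8% of those placed 1001 to 2000. The promoter regions gave 63.2% and 67.4% in that last range. The promoter regions were the stronger class: the 2000th stood at place 4932 in replicate 1 and 4346 in replicate 2, against 10535 and 10477 for distal regions, and the part of strength in the finding rate was not tested. Both lists are relaxed, with 28996 and 23228 regions, so finding a region says only that it was listed.

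Distal regions found in the other replicate held the elements more often than those not found. TGATAAG was in 10.72% of found and 5.281% of the rest when chosen in replicate 1, and in 12.73% and 6.329% when chosen in replicate 2. GAGAGAGA was in 11.89% and 4.607%, and in 10.99% and 5.696%. Found regions were also the stronger ones, and no test was run. Of the 2000 pooled regions, 1574 (78.7%) were listed in both replicates, 211 in replicate 1 alone, 214 in replicate 2 alone and 1 in neither.

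**Figure D4:**
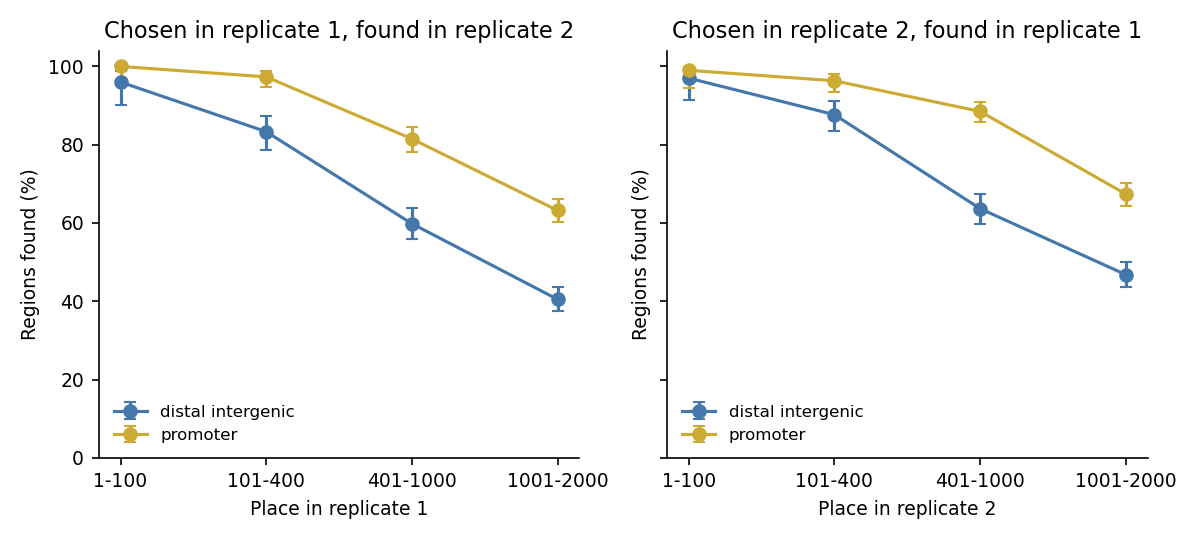
Percent of regions chosen in a replicate that were found in the other, by place in the first, for distal intergenic and promoter regions; bars are exact 95% binomial intervals. Distal regions go from 96% and 97% in the first 100 to 40.5% and 46.8% in the last 1000, below promoter regions.

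The distal regions leaned toward the upstream side of genes even beyond the promoter limit. The nearest start lay at a median of 2526 bp (237 to 37824), against 2690 bp for eligible bases, and 1463 regions (73.15%, interval 71.15 to 75.08) were upstream of it, against 64.76% of the sequence. Gaps between divergent genes held 33.9% of regions and 29.88% of the sequence, and gaps between convergent genes 10.95% and 16.44%. Sequence over 10 kb from any start held 38 regions (1.9%) and made up 3.74%. The middle part of the chromosomes, covering 50% of their length, held 46.55% of regions and 45.95% of the sequence.

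Other annotated genes inside the distal sequence differed in how many regions they held. Annotated ncRNA genes held 123 regions (6.15%, interval 5.137 to 7.294) against 1.662% of the sequence, and lincRNA genes 24 (1.2%) against 0.7372%. Pseudogenes held 101 (5.05%) against 10.76%. Genes of piRNAs held 0 of 2000, which allows a share of up to 0.1843%, against 0.5185% of the sequence. These shares have no test beyond their intervals. Eligible sequence as a whole had 86.24% of unique 36-letter words and the summit windows 97.36%; the part of this in these shares was not tested.

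MicroRNA genes, whose short products silence messenger RNAs, were not among the genes that the selection excluded. Within 500 bp of them lay 28 regions (1.4%, interval 0.9323 to 2.017), against 0.4275% of the sequence, at 25 of 261 annotated microRNA genes, and 6 of the 28 lay on X. The strongest was 86 bp from mir-51, placed 20 with a pooled signal of 138.8, 53.73 in replicate 1 and 84.66 in replicate 2. The next was 178 bp from mir-52, which belongs to the same family, with 113.9 pooled, 59.52 and 67.67. The next after those was 336 bp from mir-239b with 65.36 pooled, 24.75 and 40.84. Others chosen after their values were seen lay 133 bp from mir-60 (63.71), 310 bp from the muscle microRNA gene mir-1 (52.26), and 146 and 480 bp from mir-48 and mir-241 of the let-7 family (45.88 and 48.48). The mir-48 and mir-241 regions had q-values of 0.1369 and 0.08652.

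**Figure D5:**
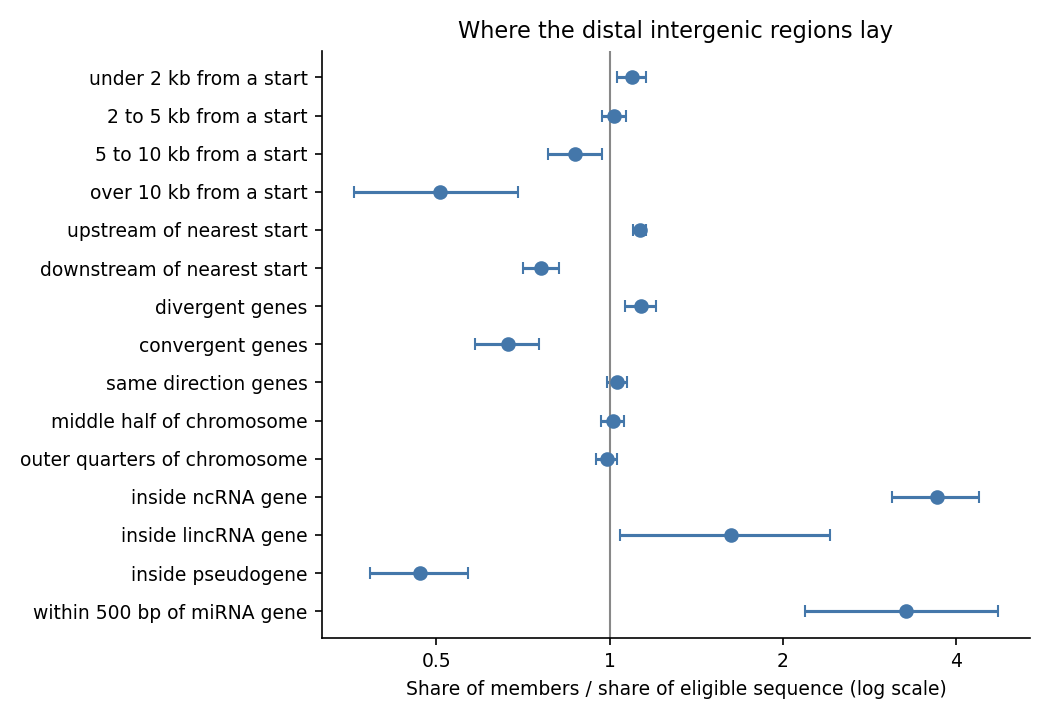
Share of the 2000 regions divided by share of the eligible sequence (log scale) for classes of distance, side, neighbouring genes and other annotated genes; bars are exact 95% binomial intervals of the regions' share. Chromosome ends and genes of miRNAs, piRNAs and antisense RNAs are not plotted. Of the classes plotted, annotated ncRNA genes (3.7) and the surroundings of microRNA genes (3.275) lie highest, and pseudogenes (0.4694) lowest.

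The regions had 1522 different nearest genes, 7.62% of 19973 protein-coding genes, and 345 of these genes had several regions. The nearest start is not shown to be the gene a region acts on. The most regions belonged to nhr-41, a nuclear hormone receptor gene on IV with 8, of which the strongest was placed 840. The genes mdl-1, which encodes a partner in the Myc and Mad network, and the homeobox gene zfh-2 had 5 each. These genes were chosen after their values were seen. Of all 2000 regions, 248 (12.4%) overlapped another, so some of these runs share bases.

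Regulatory gene families were represented to different degrees. Among the regions named by family here and below, those with a pooled signal of 51.14 or less had q-values over 0.05. Examples were 0.215 near hlh-29, 0.5085 near egl-18, 0.5338 near tbx-33 and 0.5467 near mom-5. Nuclear hormone receptors, ligand-responsive transcription factors, had a region at 33 of 269 genes, and 2.6% of regions (interval 1.948 to 3.396) against 1.812% of the sequence nearest to them. Of their 52 regions 8 were those of nhr-41, which the interval counts as separate. The strongest were near nhr-20 (146.4 pooled, 65.81 in replicate 1 and 78.24 in replicate 2) and nhr-105 (94.02, 40.49 and 54.06). Homeobox genes had 15 of 99, with 1.1% against 1.266%; the Hox gene egl-5 had a region 1956 bp upstream with 68.69 pooled, 19.76 and 45.37. Of 11 GATA factor genes 2 had a region, with 0.15% of regions against 0.1461% of the sequence. That of elt-2, the main intestinal GATA factor, lay 1646 bp upstream (X, summit 10479594) with 56.07 pooled, 24.11 in replicate 1 and 36.9 in replicate 2. That of egl-18 lay 6085 bp upstream with 33.73 pooled. Of 29 genes counted as basic helix-loop-helix genes by their symbol 1 had a region, near hlh-29 (42.18). These genes had 0.05% of regions (interval 0.001266 to 0.2783) against 0.3684% of the sequence. The count of 29 genes leaves out mdl-1, which had 5 regions. Of 21 T-box genes 2 had a region, tbx-33 (33.06) and tbx-34 (43.37), with 0.1% against 0.2145%.

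Chemoreceptor, neuropeptide and collagen genes, like the basic helix-loop-helix genes counted above, had fewer regions than their share of the sequence, beyond the intervals. The part of sequence uniqueness in these shares was not tested. Chemoreceptor genes, the largest family in this genome, had 29 of 1309, and 1.65% of regions (interval 1.138 to 2.309) against 5.275% of the sequence, the strongest near sri-5 (68.45) and str-77 (65.94). Neuropeptide genes had 7 of 102 and 0.45% (interval 0.206 to 0.8525) against 1.141%, and collagen genes 5 of 175 and 0.3% (interval 0.1102 to 0.6518) against 0.6791%. The regions of flp-15 (58.14) and nlp-6 (42.52), which encode neuropeptides, and of col-185 (52.52) and col-105 (39.39) were their strongest. F-box genes had 14 of 322, with 0.9% against 1.379%, which lay inside the interval of 0.5342 to 1.419%, led by fbxa-55 (213.5) and fbxa-30 (103.2).

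C-type lectin genes, tied to immunity, had 8 of 240 and 0.4% of regions against 0.6854% of the sequence, and clec-17 (91.69) was the strongest. Shares of genes here stand beside 7.62% of all protein-coding genes, but only 11672 of those 19973 genes have eligible sequence nearest to them. Families differ in this, with 37 of 39 insulin-like peptide, 17 of 21 T-box and 124 of 240 C-type lectin genes. The share of regions against the share of sequence allows for it. Detoxification enzymes had 7 of 185 and 0.35% against 0.4256%, with gst-35 (53.79) and cyp-23A1 (50.6). Insulin-like peptide genes had 4 of 39 and 0.2% against 0.3399%, with ins-11 (51.14) and ins-19 (38.99), and the ins-11 region, 613 bp downstream of the start, held both TGATAAG and CACGTG. Proteases and lysozymes had 4 of 35 and 0.25% against 0.2012%, with asp-13 (65.18) and asp-1 (49.92), and both of those windows held TGATAAG. Wnt and Frizzled genes had 2 of 9 and 0.1% against 0.08269%, the receptors mig-1 (42.19) and mom-5 (32.69), and the latter was listed only in replicate 2. Histone genes had 2 of 72 and 0.1% against 0.09931%, his-24 (63.7) and his-70 (39.8). None of the 6 yolk protein genes had a region, though only 2 of those have eligible sequence nearest to them.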

How the data were processed

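Anti-GFP precipitates of PQM-1-GFP late embryos, 2 biological replicates of 1 group, were listed by the authors as regions per replicate and on pooled replicates, per the deposited README text; the labels give build ce11 for the 4 lists used. The deposited signal is the authors' own peak value, not scaled between lists, and the deposited −log10 q-value is their false discovery rate. Aligner, peak caller and its version were not given in the sources used here. The ce10 lists and the control libraries were not analysed here.

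Summits were placed with Ensembl release 115 and the RefSeq genome of WBcel235, which matches ce11: 0 regions lie beyond a chromosome end. Both strands were searched, and repeats are the genome's soft-masked bases. Windows reach 100 bp to each side. Intervals are exact (Clopper-Pearson) at 95%; they and the p-values cover counting error only, and the depth is unknown. Tests are two-sided, with Benjamini-Hochberg adjustment and an adjusted p of 0.05 as the threshold. The tests came from scipy 1.17.1 in Python 3.11.15, with pandas 2.3.3 and numpy 2.4.6 for tables and matplotlib 3.10.9 for plots, and were checked on simulated data.

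Named genes are those of the 12 strongest regions, the 4 strongest with each of the 3 elements, the 4 strongest on X, the 3 strongest within 500 bp of a microRNA gene, up to 2 per family of 16, the regions at the limit, and the 12 most significant words. The members, families, tests and lists were chosen with earlier results of these data known. Alternatives were the 1000 and 500 strongest, each replicate alone, a wider promoter, sequence outside every gene, other windows and flanks, a q-value limit, regions in a like range of signal, spaced regions, unique bases and a 50% overlap; the 100 strongest and the middle of each chromosome were added after seeing the data.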

Additional observations from a re-analysis of the deposited data

How the results depend on the processing

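No paired analysis was possible because the study has 1 group. The X share is described in the report: 22.7%, 24.8%, 30% and 25.36% in the strongest 1000, 500 and 100 and in those with q of at most 0.05 turned its direction, 21.65% (replicate 2 alone; 20.5% in replicate 1 alone) and 21.75% (wider promoter) ended the call. Words higher at summits numbered 1247 and words lower 728; these became 363 and 338 in the strongest 500, and 766 to 1084 and 465 to 650 in a replicate alone. Patterns against promoter and gene-body regions numbered 8, and 4 in the strongest 500. On X, 1 pattern differed in replicate 2 alone and 0 in replicate 1 alone. Sign turned, in percentage points, for TGACTCA at summits (0.6 in 1000, -0.3 to 0.5 in a replicate alone, 0.55 with the wider promoter, 0.4 outside genes, 0.05 and 0.2 with windows of 50 and 200 bp each side) and GTAAACA (-0.2 in 500, -0.1 with 50 bp, -0.237 by q). Against promoters it turned for TGATAAG (1.3 in 1000, 4 in 500, 0.8204 in the like range of signal), CACGTG (1.7, 2.8), TTTTTTT (-2.8, -5.8, and -2.178 in that range), and with the wider promoter for the general GATA site (-1.65) and GAGAGAGA (-3.05). Of the patterns that turned, GAGAGAGA passed the threshold in both settings and the others in neither; the cause was not tested. Unknown depth limits the weaker regions.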
